A study of Mus musculus and Homo sapiens with 22 samples.

Results

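The genes described here are 39 genes of blood clotting and of the complement system, chosen by name out of 21924 protein-coding genes of the mouse annotation (20020 in the human annotation). They encode 8 coagulation factors, 3 fibrinogen chains, 2 proteins of the contact system, 3 proteins that regulate fibrinolysis, 5 anticoagulants, 2 plasma binding proteins, 7 proteins that activate complement, 6 proteins of the terminal complement pathway and 3 complement inhibitors. Each gene was placed by the position of peak summits: a promoter peak had its summit within 1 kb of any annotated transcription start site (TSS) of the gene, and other peaks lay elsewhere in the gene or within 10 kb of it. In human, Hc is C5 and C4bp is C4BPA, and the other symbols are the same in capitals.

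Clotting is a cascade in which inactive proteases in plasma activate one another until thrombin cuts fibrinogen to fibrin, and plasmin later dissolves the clot. Complement is a related plasma cascade that marks microbes through C3 and perforates their membranes with the terminal components. Most of these proteins are made and secreted by hepatocytes, and PROX1 is a homeobox transcription factor of hepatocytes and of lymphatic endothelium that is known to bind the nuclear receptors HNF4A and LRH-1.

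Binding of PROX1 was mapped by CUT&RUN, in which a nuclease tethered to an antibody releases the DNA under the bound protein. Endogenous PROX1 was profiled with a PROX1 antibody in 5 samples from the liver of wild-type C57BL/6J mice aged 2 to 3 months, which the labels call hepatocytes and which carried no transgene. In mouse embryonic fibroblasts (MEFs) from wild-type C57BL/6N embryos at E13.5, FLAG-tagged mouse Prox1 was expressed from a lentivirus together with rtTA, the doxycycline-dependent activator, for 2 days in 2 μg/ml doxycycline, and it was profiled with a FLAG antibody in 3 samples. In Hep3B, a human hepatocellular carcinoma line, human PROX1 was induced from the vector pLIX-Puro-hsPROX1 in puromycin-selected cells, also for 2 days in 2 μg/ml doxycycline, and profiled with the FLAG antibody in 3 samples. Every set had as many IgG samples, from cells of the same kind and treatment. Tissue, antibody and the origin of PROX1 changed together between liver and the cultured cells, and their parts in any difference cannot be told apart.

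The authors deposited 1 peak list per antibody group, with 50159 peaks in liver, 40531 in MEFs (both on mm10) and 14369 in Hep3B (on hg38). Each list pools its replicates, so no value below has an error between samples and no difference was tested. The strength of a peak is the −log10 of the p-value at its summit, and it is ranked as a percentile within its own list, where values near 100 are the strongest peaks. The median peak reached 12.2 in liver, 5.96 in MEFs and 6.44 in Hep3B, and the lists were not normalized to each other. Read depth is unknown from these lists. They hold no expression values, so the labelled cell types could not be checked against marker genes.

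In liver, 36 of the 39 genes had a promoter peak (92.3%), while 28.2% of all protein-coding genes did. In MEFs, 6 of the 39 did (15.4%), against 56.5% of all genes. In Hep3B, 10 of the 39 did (25.6%), against 45.2% of all genes. By promoter peaks, the clotting and complement genes therefore stood above the genome-wide share in liver and below it in both overexpression models. Among genes with few CpG dinucleotides at the 5′ end, the order turned in Hep3B (17.6% against 15.2%).

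**Figure D1:**
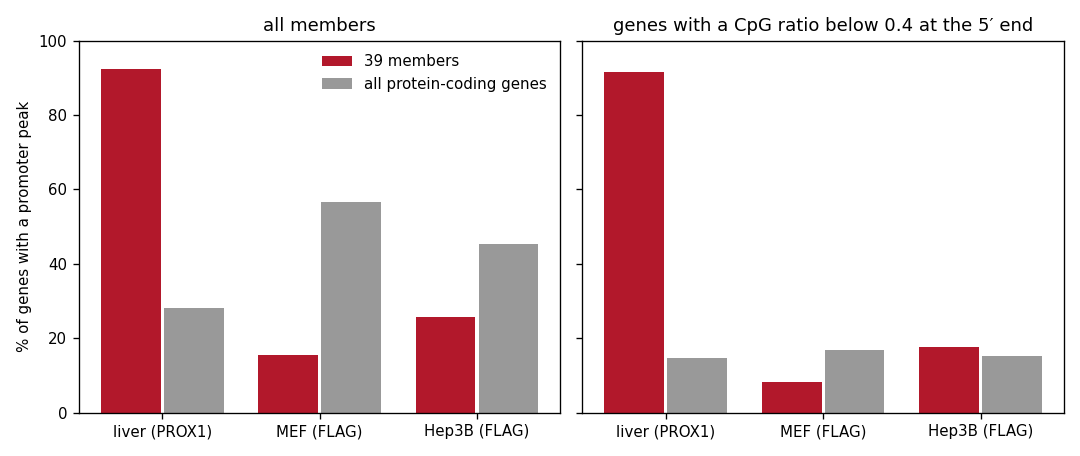
Percentage of genes with a promoter peak (y axis) in each of the 3 lists (x axis), for the clotting and complement genes (red) and for all protein-coding genes (grey). The left panel holds all 39 genes and shows red above grey in liver only (92.3% and 28.2%). The right panel holds genes with a CpG ratio below 0.4 at the 5′ end. There the red bars are at 91.7% in liver, 8.33% in MEFs and 17.6% in Hep3B, and the grey bars lie between 14.6% and 16.7%. Each bar is 1 pooled list and has no error.

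Peaks anywhere at the gene were counted too. In liver, 38 of 39 genes had a peak at the promoter, in the gene or within 10 kb, against 50.5% of all genes. The count was 22 of 39 in MEFs, against 71.6% of all genes (with a 50 kb flank the order turned, to 35 of 39 against 81.2%), and 20 of 39 in Hep3B, against 57.2%. Of the other genes in liver, F5 and Masp1 had peaks in the gene body and flank but no summit within 1 kb of a TSS. Tfpi had no peak. A peak of F5 covered the 5′ end of the gene, and a peak of Masp1 reached it. Counting any 1 bp of a peak within the promoter window gave 38 of 39 genes in liver, against 29.8% of all genes. MEFs had 9 genes with peaks in the body as their closest class, 7 with peaks only in the flanks and 17 with none. The same counts in Hep3B were 1, 9 and 19. Some of the flank peaks lay at the start of a gene outside the 39 (8 of 20 distinct flank peaks in MEFs and 8 of 15 in Hep3B).

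Long genes have more room for peaks, so peaks were also counted per length. Over the 39 genes with 10 kb on each side, liver had 13 peaks per 100 kb, against 3.03 over all protein-coding genes, a ratio of 4.29. The ratio was 0.943 in MEFs (2.3 and 2.44 peaks per 100 kb) and 1.69 in Hep3B (1.37 and 0.812). In liver the median gene of the 39 had 7 peaks, while the median of all genes was 1, and Fgg and C3 had the most, with 14 each.

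**Figure D2:**
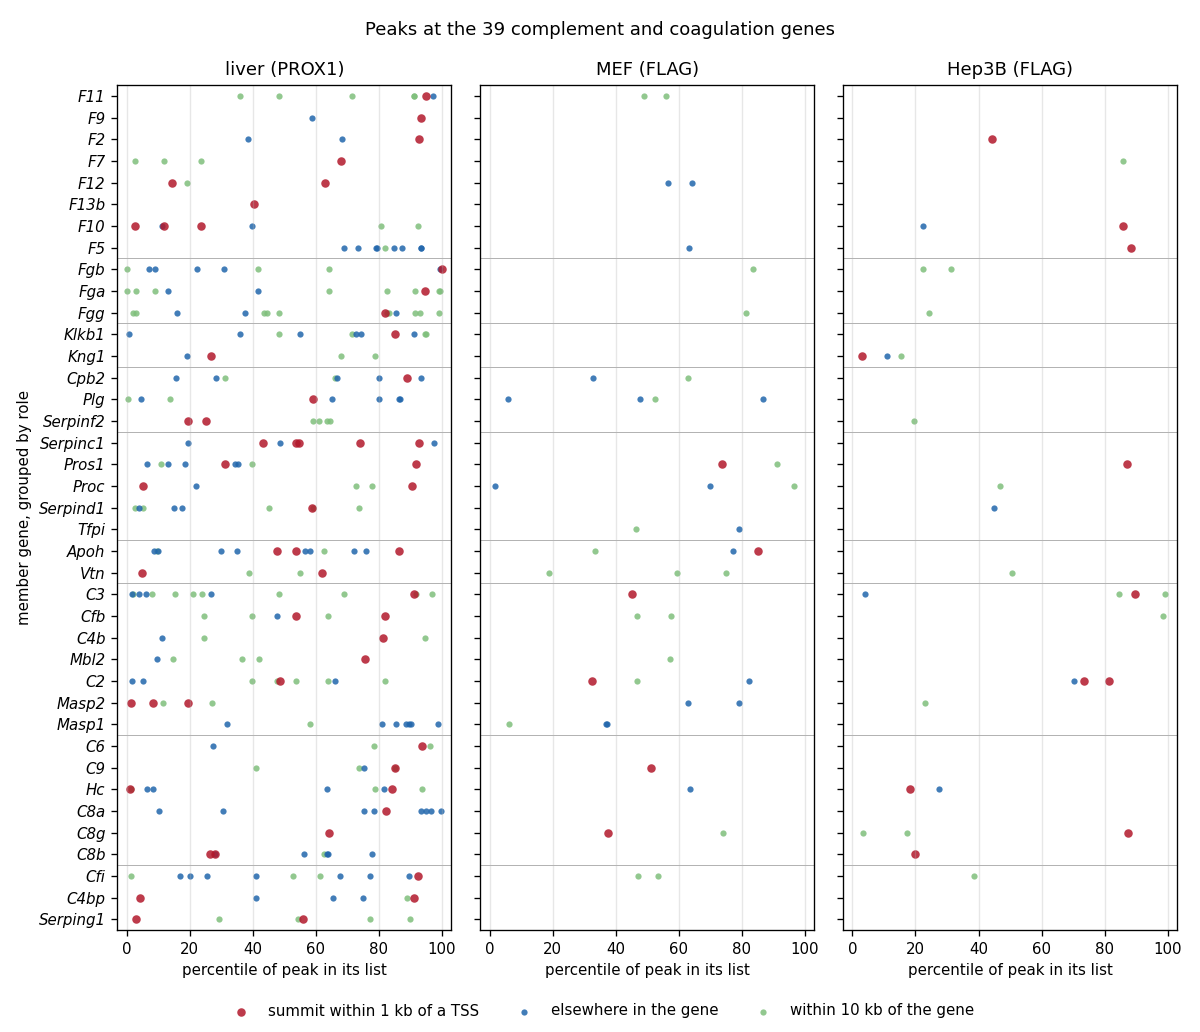
Every peak at the 39 genes, 1 row per gene grouped by role, against the percentile of the peak in its list (x axis), with red points for promoter peaks, blue for peaks elsewhere in the gene and green for peaks within 10 kb. Liver fills 38 of the 39 rows, with red points in 36 and most of them toward the right, whereas MEFs have red points in 6 rows and Hep3B in 10.

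The promoter peaks of liver were strong as well as frequent. Taking the strongest promoter peak of each gene, the 36 genes had a median percentile of 82.1 (interquartile range 59.1 to 91.4), and the 6189 genes with a liver promoter peak had a median of 40.5. Of the 39 genes, 22 had a promoter peak at percentile 75 or more of the liver list, against 5.42% of all genes. Promoter peaks at the 39 genes were also wider, with a median of 852 bp against 537 bp for all liver promoter peaks.

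Sequence from some of these peaks, chosen for the motifs they hold and not for their strength, is shown here because the letters at the summits are taken up again below. The windows reach 100 bp to each side of the summit of the strongest promoter peak, read on the strand of the gene from the mm10 sequence and cut where an annotated exon begins. They belong to liver peaks that held 2 or more motifs of liver-enriched factors, or the HNF4 motif; in F9 the second motif, AGGTCA, runs into the exon that was left out. Capitals mark AGGTCA (nuclear receptors), CAAAGTCCA (HNF4), GTTAAT (HNF1), TGTTTAC (FOXA) and TTGCNNAA (C/EBP) on either strand. The windows lie at chr3:83050760-83050960 (Fgb, minus strand), chrX:59999296-59999463 (F9, plus), chr16:23058093-23058249 (Kng1, plus), chr16:62854754-62854954 (Pros1, plus), chr11:108395070-108395270 (Apoh, plus) and chr15:4726828-4727028 (C6, plus).
Fgb: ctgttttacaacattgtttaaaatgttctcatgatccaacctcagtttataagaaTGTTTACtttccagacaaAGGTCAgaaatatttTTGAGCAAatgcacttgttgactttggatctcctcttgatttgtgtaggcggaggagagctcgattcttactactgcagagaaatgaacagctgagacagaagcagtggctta
F9: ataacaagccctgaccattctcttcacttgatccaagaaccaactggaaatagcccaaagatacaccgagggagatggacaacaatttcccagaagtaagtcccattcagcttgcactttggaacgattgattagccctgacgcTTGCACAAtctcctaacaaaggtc
Kng1: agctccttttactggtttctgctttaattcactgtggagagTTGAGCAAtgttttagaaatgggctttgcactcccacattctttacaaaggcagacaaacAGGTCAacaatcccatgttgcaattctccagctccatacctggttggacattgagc
Pros1: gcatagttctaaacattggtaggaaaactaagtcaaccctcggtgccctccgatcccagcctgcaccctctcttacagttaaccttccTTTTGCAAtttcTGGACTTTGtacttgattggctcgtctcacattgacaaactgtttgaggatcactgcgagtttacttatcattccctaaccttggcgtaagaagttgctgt
Apoh: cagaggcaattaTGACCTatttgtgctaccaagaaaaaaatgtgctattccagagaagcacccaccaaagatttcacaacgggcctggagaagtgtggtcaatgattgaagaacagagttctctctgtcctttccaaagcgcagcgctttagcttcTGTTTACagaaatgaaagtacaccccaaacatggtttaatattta
C6: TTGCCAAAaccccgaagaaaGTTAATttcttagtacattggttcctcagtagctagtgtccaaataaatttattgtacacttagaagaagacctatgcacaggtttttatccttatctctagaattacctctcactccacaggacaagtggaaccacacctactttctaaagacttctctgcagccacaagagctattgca

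The fibrinogen genes held the strongest of all these peaks. Fga, Fgb and Fgg encode the 3 chains of fibrinogen, the precursor of fibrin, and stand side by side on mouse chromosome 3. The peak at Fgb (chr3:83049476-83055623) was 6148 bp wide, had a −log10 p of 29.5 and reached percentile 100 after rounding (the strongest peak of the liver list was at 61.7), with its summit in intergenic sequence 997 bp upstream of the TSS, just inside the 1 kb limit. That peak also covered 3 annotated starts of Plrg1, the next gene, 4662 bp or more from the summit. Fga had a promoter peak of 19.8 (percentile 94.6) with its summit 173 bp upstream, and Fgg one of 16.2 (percentile 81.9) 25 bp upstream. Between the genes lay peaks at percentile 99.5 (3999 bp wide, with its summit in the 3′ part of Fgb, 9671 bp from its start) and 99.2 (5513 bp upstream of Fga). Over the 62.1 kb from 10 kb before Fgg to 10 kb after Fgb, liver had 25 peaks, of which 6 reached percentile 90. MEFs had 2 peaks in the same stretch, the stronger at percentile 83.6 and nearest to the start of Plrg1. The human locus had 3 peaks in Hep3B, all in the flanks, the strongest at percentile 31.3.

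**Figure D3:**
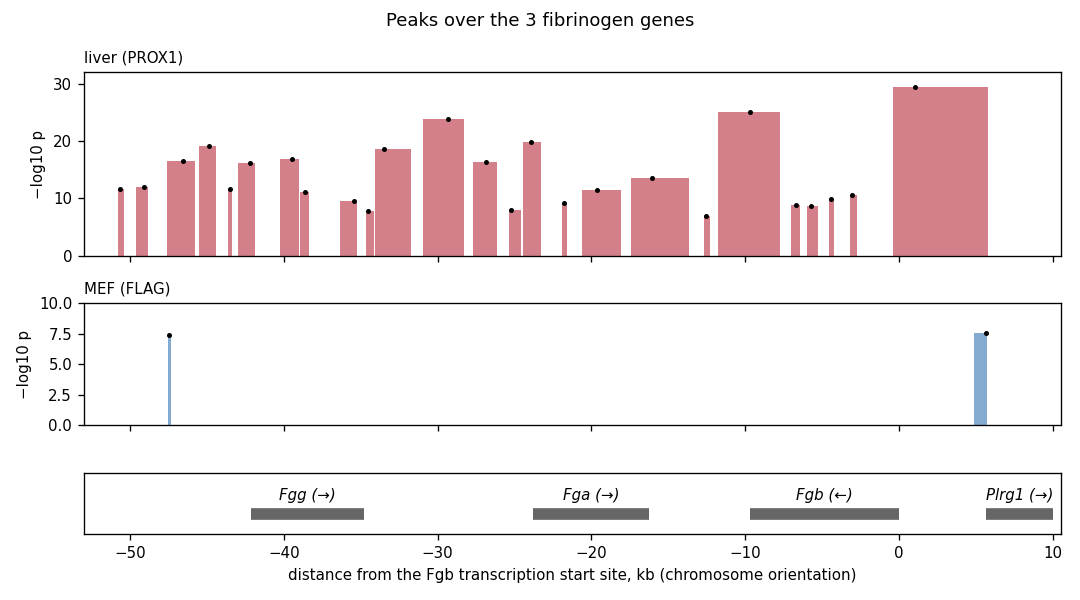
Peaks in liver (upper panel) and MEFs (middle panel) over the fibrinogen genes, drawn from their start to their end against distance from the Fgb TSS in kb, with the height giving the −log10 p at the summit (black dot) on a scale of its own for each list, and the genes with their direction below. Liver has 25 peaks, the tallest (29.5) over the Fgb promoter; MEFs have 2, at the outer edges.

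Among the coagulation factors, 7 of 8 had a liver promoter peak. F11, a protease that activates factor IX, had one of 20.0 (percentile 94.9, chr8:45261127-45263478) with its summit 124 bp upstream of the TSS. F9, the gene of haemophilia B, reached 19.3 (percentile 93.4, chrX:59999115-59999584) at 68 bp upstream. F2, which encodes prothrombin, reached 19.1 (percentile 92.8, chr2:91635679-91637421) at 671 bp upstream. These summits were all intergenic. The promoter peaks of F7, the partner of tissue factor, of F12, which starts the contact pathway, and of F13b, the carrier subunit of the enzyme that crosslinks fibrin, were lower, at percentiles 68.0, 62.8 and 40.4. F10, which encodes the protease that activates prothrombin, had 3 promoter peaks, none above percentile 23.6, while its strongest peak lay within 10 kb of the gene at percentile 92.5. The summit of that flank peak lay 351 bp from a start of Proz, and the same peak is counted below as the promoter peak of Proz. F5, the cofactor of factor Xa, had 9 peaks in or beside the gene, but the nearest summit was 1306 bp from a TSS (percentile 93.5), just outside the promoter limit. The peak with that summit was 2874 bp wide and covered the TSS.

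Both genes of the contact system had liver promoter peaks. Klkb1, encoding plasma prekallikrein, reached percentile 85.1 with the summit on its TSS, and Kng1, encoding kininogen, reached 26.9. Klkb1 and F11 are neighbours and share peaks within 10 kb: their joint stretch of 73.7 kb held 13 liver peaks, 5 of them at percentile 90 or more. MEFs had 2 peaks there, and the human stretch had 0 in Hep3B.

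All 3 fibrinolysis genes had liver promoter peaks. Cpb2, which encodes a carboxypeptidase that slows fibrinolysis, reached percentile 88.8. Plg, encoding plasminogen, reached 59.1, with its summit in a coding exon 64 bp from the 5′ end of the gene. Serpinf2, the inhibitor of plasmin, reached 25.2.

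Of the anticoagulants, 4 of 5 had a liver promoter peak. Serpinc1, encoding antithrombin, had 5 promoter peaks, the most of any of the 39 genes. The strongest of these (19, percentile 92.8, chr1:160986359-160988014) lay 8430 bp into the gene, 72 bp upstream of the start of a transcript annotated as a retained intron. Pros1, encoding protein S, reached percentile 91.7 and Proc, encoding protein C, reached 90.5. Serpind1, encoding heparin cofactor II, reached 58.9. Tfpi, the inhibitor of tissue factor, which is made mainly by endothelium, was the only one of the 39 genes without a liver peak at any location, and the nearest summit lay 39545 bp from its start sites. In MEFs it had peaks in the gene body and flank, the stronger at percentile 79.1, and in Hep3B none.

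Both plasma binding proteins had liver promoter peaks. Apoh, encoding β2-glycoprotein I, reached percentile 86.4, and its strongest promoter peak lay 51816 bp downstream of the most upstream annotated start, at a start inside that longer gene model. Vtn, encoding vitronectin, reached 62.1.

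Of the genes that activate complement, 6 of 7 had a liver promoter peak. C3, the central component, reached 18.4 (percentile 91.0) at 174 bp upstream, and a second peak 5034 bp upstream was at percentile 97.0. Cfb, encoding factor B of the alternative pathway, reached percentile 81.8. C4b, encoding C4, reached 81.3, and Mbl2, a mannose-binding lectin, 75.7. C2, the classical pathway protease, reached 48.6, at a start 16046 bp downstream of the first one. Masp2, a protease of the lectin pathway, had the lowest strongest promoter peak of the 36 genes, at 19.6. Masp1, its relative, had 8 peaks and no promoter peak: the nearest summit lay 2661 bp from a TSS and the strongest, at percentile 98.9, was in an intron.

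All 6 genes of the terminal pathway, whose products build the membrane attack complex, had liver promoter peaks. C6 had the strongest, of 19.4 (percentile 93.6, chr15:4726293-4728114) with its summit in intergenic sequence 247 bp upstream. C9, the pore-forming component, was at 85, Hc at 84.2, C8a at 82.3, C8g at 64.3 and C8b at 28. C8a also had a peak in an intron at percentile 99.8, with a −log10 p of 26 and a width of 2792 bp. The neighbours C8a and C8b together had 17 liver peaks over 130.0 kb, no peak in MEFs and 1 in Hep3B.

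All 3 complement inhibitors had liver promoter peaks. Cfi, encoding factor I, which cleaves C3b, reached 18.9 (percentile 92.5, chr3:129835990-129837277) with its summit in a transcribed but untranslated exon 68 bp downstream of a TSS. C4bp, the cofactor of factor I, reached percentile 91.3 with its summit 1 bp from a TSS. Serping1, encoding C1 inhibitor, reached 56.

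Summits in liver lay close to start sites. For the strongest promoter peak of each gene the median distance to the nearest TSS was 124 bp, against 202 bp over all genes with a liver promoter peak, and 16 of 36 summits lay within 100 bp, where 32.4% of all these genes had theirs. Of the 36, 28 lay upstream of the TSS, while 64.6% of all genes with a promoter peak had an upstream summit. Altogether 56 distinct peaks lay at these promoters, of which 26 had a summit in intergenic sequence, 18 in introns, 10 in untranslated or noncoding exons and 2 in coding exons. In 23 of the 39 genes the strongest peak was not at the promoter but in the gene or its flanks. The median number of liver peaks was 7 over the 39 genes and 1 over all genes. The flank of 1 gene can be the promoter of another: 11 of the 92 distinct flank peaks in liver lay within 1 kb of the start of a protein-coding gene outside the 39. In MEFs 8 of 20 distinct flank peaks did, and in Hep3B 8 of 15. The share over all genes was not counted for the kind of sequence, the place of the strongest peak or these flank peaks.

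**Figure D4:**
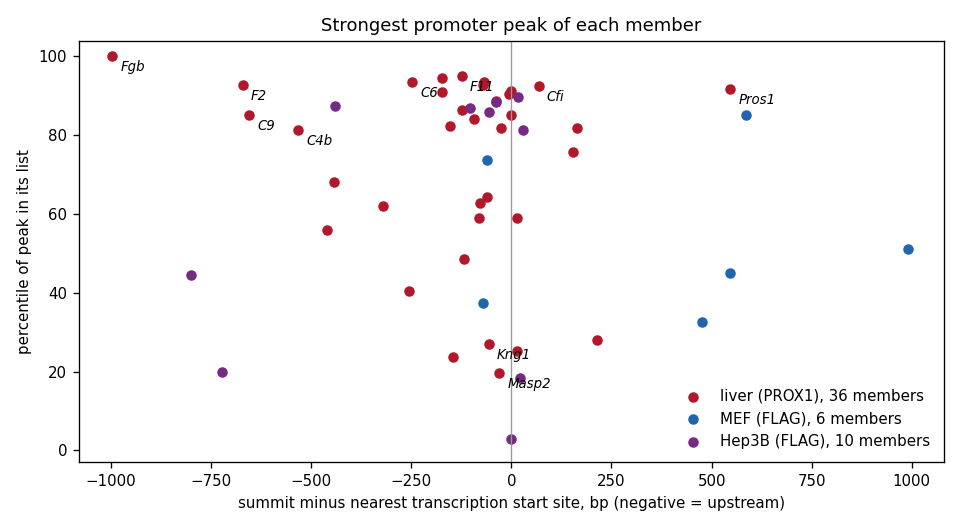
Strongest promoter peak of each gene by list: distance of the summit from the nearest TSS in bp (x axis, negative upstream) against percentile in the list (y axis), 1 point per gene. Of the 36 liver points 25 lie within 200 bp of the TSS (49.8% of all genes with a liver promoter peak do), Fgb is the highest and the farthest upstream (−997 bp), and Masp2 is the lowest (19.6).

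In MEFs, the 6 genes with a promoter peak had a median percentile of 48.1, below the 74.9 of all 12383 genes with a MEF promoter peak. Of these 6 peaks, 3 lay within 1 kb of the start of another protein-coding gene. Apoh (percentile 85.2, summit 587 bp downstream of its most upstream start) shared its peak with Prkca, C8g (37.5) with Fbxw5 and C2 (32.5) with Ehmt2. Pros1 was at 73.7, with its summit 61 bp upstream of the TSS. C9 was at 51.1, with its summit 990 bp downstream, and C3 at 45.1, at the start of a processed transcript 8711 bp into the gene. Leaving out peaks within 1 kb of the start of another protein-coding gene left 3 of 39 genes in MEFs, 6 in Hep3B and 34 in liver. The share of all genes left by this filter was not computed, so these drops have no background to be read against.

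At promoters, the same mouse gene often had a peak in liver and none in MEFs. At any location, 22 of the 39 had a MEF peak, against 71.6% of all genes. Of the 39 genes, 30 had a promoter peak in liver and not in MEFs, against 4.42% of all genes. None of the 39 had one in MEFs and not in liver, against 32.7% of all genes. By position, of the 56 liver promoter peaks at these genes 5 overlapped a MEF peak (8.93%), while 60.3% of all liver promoter peaks did. At all locations 14 of 243 did (5.76%), against 18.9%. Counted from the MEF list the order turned: 4 of the 6 MEF promoter peaks at these genes overlapped a liver peak (66.7%), against 34.5% of all MEF promoter peaks, and 14 of 43 MEF peaks at all locations did (32.6%), against 21.4%. For C2, the liver and MEF promoter peaks lay at different starts of the gene. Apoh had a MEF peak at its most upstream start, where liver had a weaker peak (percentile 47.8, summit 372 bp upstream) beside its strongest one at the internal start. For Pros1 the strongest summits were 61 bp upstream of the TSS in MEFs and 547 bp downstream in liver.

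In Hep3B, 10 genes had a promoter peak, with a median percentile of 83.6, against 64.0 for all genes with one. Ranked by peak area in place of −log10 p, the order turned, with medians of 55.1 and 66.3. C3 (89.6, summit 16 bp downstream of the TSS), F5 (88.5, 39 bp upstream) and F10 (85.8, 57 bp upstream) had no start of another gene within 1 kb. C8G (87.4), C2 (81.4) and C5 (18.3) had one, those of FBXW5, EHMT2 and CNTRL. PROS1 reached 87.0. F2 reached 44.4 with its summit 799 bp upstream, C8B 19.9 and KNG1 2.96. F5 thus had its summit by the TSS in Hep3B. In liver its nearest summit lay 1306 bp from the TSS, but that peak, 2874 bp wide, also covered the TSS. The promoter percentile of F10 was 85.8 in Hep3B and 23.6 in liver by −log10 p, but 19.6 and 63.8 by peak area. The fibrinogen genes, F9, F11, SERPINC1 and C6, which were among the strongest in liver, had no promoter peak in Hep3B.

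Gene by gene, 27 of the 39 had a promoter peak in liver and not in Hep3B, against 10.4% of the 15757 genes whose symbol is in both annotations. C2, C3, C8g and Pros1 had a promoter peak in all 3 lists, which is 4 of 39, against 23.2% of the same genes.

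The start sites of these genes are poor in CpG dinucleotides. The ratio of observed to expected CpG within 500 bp of the 5′ end had a median of 0.21 over the mouse genes and 0.23 over the human ones, against 0.55 and 0.69 over all protein-coding genes. Of 36 mouse genes with a ratio below 0.4, 33 had a promoter peak in liver (91.7%), against 14.6% of all genes below that ratio. In MEFs, 3 of these 36 had one (8.33%), against 16.7%, and in Hep3B 6 of 34 (17.6%), against 15.2%. The other 3 mouse genes, Pros1, Apoh and C2, had a promoter peak in both liver and MEFs, where 37.4% and 83.1% of genes at or above the ratio did. In Hep3B, 4 of 5 such genes (PROS1, C2, C5 and C8G) had one, against 57.4%.

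Letters at the summits were counted within 100 bp on both strands, beside the share of all liver promoter peaks with the same letters. AGGTCA, the nuclear receptor site, stood at 25% of the 56 promoter peaks of the 39 genes, against 18% of all 8498 liver promoter peaks. Closer to the summit this order turned, to 8.93% against 11% within 50 bp and 3.57% against 5.9% within 25 bp. The 4 motifs that follow kept their order in both narrower windows, but on very few peaks. Within 50 bp the C/EBP, HNF1, FOXA and HNF4 motifs stood at 5, 2, 3 and 1 of the 56 peaks. Within 25 bp they stood at 5, 1, 1 and 1. TTGCNNAA, a C/EBP motif, stood at 21.4% against 11.8%, and GTTAAT, an HNF1 motif, at 12.5% against 5.59%. TGTTTAC, a FOXA motif, stood at 7.14% (4 peaks) against 3.71%, and CAAAGTCCA, an HNF4 motif, at 3.57% (2 peaks) against 1.44%. At least 1 of these 5 motifs stood at 29 of the 56 peaks (51.8%), against 34.3% of all promoter peaks and 49.1% of all liver peaks at any location, so that the share was near that of the whole list. GGGCGG, the SP/KLF motif of CpG-rich promoters, was the reverse, at 3.57% against 29.8%. CCAAT, the NF-Y motif, stood at 23.2% against 24.6%. The 12-letter PROX1 consensus with up to 2 mismatches stood at 5.36% against 5.28%, and the shorter PROX1 motif AAGACG at 1.79% against 5.06%. Over all 243 liver peaks at these genes AGGTCA stood at 23.9%, against 26% of the whole list. Base composition differed too, with a median GC content of 48.0% in the member windows and 53.7% in the windows of all liver promoter peaks. A match is a string of letters and no measure of binding by the named factor.

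**Figure D5:**
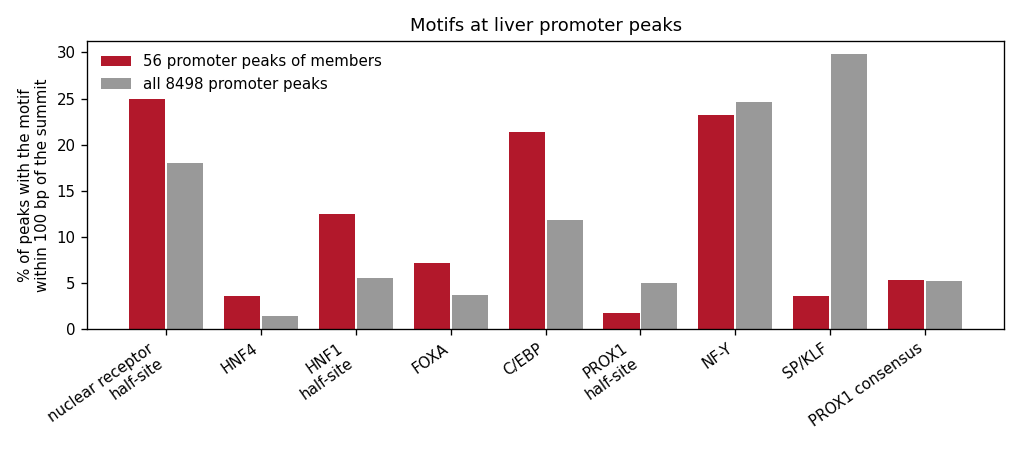
Percentage of liver promoter peaks with each motif within 100 bp of the summit (y axis) for the 56 peaks at the clotting and complement genes (red) and all 8498 liver promoter peaks (grey). The 5 motifs of liver-enriched factors on the left have red above grey in this window (for the nuclear receptor site the order turns within 50 bp, 8.93% and 11%), SP/KLF has grey far above red (29.8% and 3.57%), and the PROX1 consensus is level (5.36% and 5.28%).

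In the windows printed above, Fgb carried the FOXA, nuclear receptor and C/EBP motifs in that order, all just upstream of its summit. Kng1 carried the nuclear receptor and C/EBP motifs, although its peak was weak (percentile 26.9). Apoh carried the nuclear receptor and FOXA motifs at the internal start, where its strongest liver promoter peak lay. C6 carried the HNF1 and C/EBP motifs. Pros1 carried the HNF4 and C/EBP motifs beside the liver summit in an intron. In Hep3B the F10 peak carried the HNF4 motif at the TSS, shown on the plus strand of hg38 with 10 bases on each side (chr13:113122787-113122815), in capitals as it reads on the opposite strand.
F10: agctggggcgTGGACTTTGctccagcagc

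Other genes of the same pathways were placed in the same way. Of 16 further genes made by hepatocytes, 14 had a promoter peak in liver (87.5%, against 28.2% of all genes). In MEFs 5 of 16 did (31.2%, against 56.5%), and in Hep3B 1 of 15, CLU (6.67%, against 45.2%). The 14 included Kng2 (percentile 97.3), a second kininogen gene, Proz (92.5), encoding protein Z, Habp2 (91.2), a protease that activates factor VII, and Hgfac (85.8), the activator of hepatocyte growth factor. The Proz peak is the one also counted above as the strongest peak of F10. Serpina5 (82.6), the protein C inhibitor, C1ra (82.4), a protease of the C1 complex, Serpina1a (82.3), an α1-antitrypsin gene, Serpina10 (78.9), the protein Z-dependent inhibitor, and Hrg (76.3), histidine-rich glycoprotein, were next. Clu (71.0), C1s1 (67.1), Itih4 (40.9) and C1rl (36.3) were lower. Of 34 pathway genes made mainly by endothelium, blood or immune cells, 5 had a promoter peak in liver (14.7%, against 28.2% of all genes), among them Cd59a (75), F3 (53.3), Tfpi2 (33.9) and F2r (32.4). The same genes had a promoter peak in 11 of 34 cases in MEFs (32.4%, against 56.5% of all genes) and 9 of 33 in Hep3B (27.3%, against 45.2%). These lists were drawn up from the genes' known sites of synthesis, and expression was not measured here. They were chosen with earlier results of these data known, so they are no independent check.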

How the data were processed

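CUT&RUN libraries of 22 samples in 6 groups were analysed as the 3 peak lists that the authors deposited, 1 for each antibody group, each pooling its replicates. Per the submitters' processing notes and the study's methods, reads were trimmed with Trim Galore (v0.6.6), aligned to mm10 or hg38 with Bowtie 2 (v2.4.2) in the nf-core/cutandrun pipeline, and peaks were called with Genrich (v0.6.1). The study describes the binding sites as identified by comparison with IgG, but the stated command names no control library, so the step at which the IgG samples entered is not given in the sources used here. The deposited columns hold a score that stops at 1000, the area under the peak (a signal value), and the −log10 p-value and −log10 q-value at the summit. Pooling leaves no spread between samples, the depth of each sample is unknown, and low coverage may hide weak sites. The smallest area was 500 in liver and 200 in both other lists, so the lists had different floors.

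Summits were placed at protein-coding genes of GENCODE M21 (mouse) and GENCODE 44 (human) with Python 3.11.15, pandas 2.3.3 and pysam 0.24.0. No peak ran past a chromosome end of the reference used. Placement was tested on simulated peaks. Peaks were ranked by −log10 p within a list, with ties given their mean rank. No test was run: counts of the 39 genes stand beside the share of all protein-coding genes under the same rule, and motif shares beside those of all peaks. The members, gene lists and motifs were chosen with earlier results of these data known. Values were given in full for the 8 genes with the highest liver promoter percentile, for genes with a promoter peak in MEFs or Hep3B and for genes with no liver peak; other members were named with their class and percentile, and pathway genes outside the 39 only where they had a liver promoter peak; some neighbouring and pathway genes and 1 sequence window are not reported here. Alternatives changed the promoter window, the start sites used, the ranking, the peak thresholds and the flank. C4a was not in the protein-coding annotation and was left out.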

Additional observations from a re-analysis of the deposited data

How the results depend on the processing

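The 12 counts, medians and shares were recomputed under the alternatives, and 26 values were labelled as moved and 45 as the same. A count was labelled as moved only beyond a set fold change, a median at any change, and a share outside an interval around its main value. Counts that changed less are therefore among the 45. With equal numbers of peaks, the genes with a promoter peak in liver and not in MEFs fell from 30 to 20 (share of all genes not computed). The MEF promoter count was 9 with a 2 kb window (58.7% of all genes). The MEF promoter count was 4 with the area floor (46.0%), and peaks at any location reached 14 genes in Hep3B with a 5 kb flank (53.7%). The liver promoter count was labelled as moved only when each list was cut to its 14369 strongest peaks (22 of 39, against 6.25% of all genes). In MEFs the promoter count was 3 with a 500 bp window, with starts of protein-coding transcripts only, with the outermost start only, without peaks near another gene's start and among genes with a CpG ratio below 0.4, and 2 with equal numbers of peaks. In Hep3B it was 5 with an area of at least 500, and 6 without peaks near another gene's start and among genes with a low CpG ratio. The last 2 alternatives were chosen after seeing the data, and the share of all genes was not computed for leaving out peaks near another gene's start. Peaks at any location reached 35 genes in MEFs with a 50 kb flank (81.2% of all genes, so that the order turned), 11 with equal numbers of peaks (52.1%) and 13 with the area floor (58.2%). In Hep3B they reached 8 with the area floor (36.2%) and 12 when a peak counted for the nearest gene only (43.4%). Median percentiles for ranking by area, ranking among promoter peaks and a 2 kb window were 89.2, 89.2 and 85 in liver, 67.4, 35.1 and 63.1 in MEFs, and 55.1, 77.7 and 81.4 in Hep3B. AGGTCA stood at 12.8% of the members' liver peaks within 50 bp and 8.23% within 25 bp, against 16.5% and 9.48% of the whole list; at promoter peaks the order turned in these windows (8.93% against 11%, and 3.57% against 5.9%). The cause of these shifts was not tested. No paired analysis was possible because each list pools its replicates, and for the same reason no replicate could be left out. Read depth is unknown, so a missing peak may be a site below detection.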
